A study of Mus musculus with 8 samples.

Results

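The keratin clusters were examined as 10 kb bins of 2 approximate windows of the mouse build mm9, 980 kb on chromosome 11 (99200001 to 100180000, type I) and 690 kb on chromosome 15 (101190001 to 101880000, type II). They hold 167 of the 247224 autosomal bins, 98 in the type I and 69 in the type II window. The last 6 bins of the type II window (101820001 to 101880000) hold Krt8 and Krt18, and the 63 bins before them hold the other type II keratins, chiefly of hair and skin. H3K27me3, trimethylation of lysine 27 of histone H3, is made by Polycomb repressive complex 2 and found over silent developmental genes. It was mapped by chromatin immunoprecipitation and sequencing in the liver of wild-type CD-1 (ICR) males, 7 weeks old, from an outbred stock. Treated mice had TCPOBOP at 3 mg/kg, an agonist of the nuclear receptor CAR, and controls had vehicle, 1% DMSO in corn oil, both injected 3 h before the liver was taken. Each treatment had 3 livers with fragments of 600 to 1100 bp digested to 500 bp. The immunoprecipitated sample of replicate 1 of each treatment also gave a library of fragments over 1100 bp digested to 200 bp.

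Keratins build the intermediate filaments of epithelial cells, and each filament pairs a type I with a type II protein. Krt8 (type II) and Krt18 (type I) are the pair made by hepatocytes and other simple epithelia, and Krt18 is the type I gene that sits in the type II cluster. Krt7 and Krt19 mark bile duct cells among liver cells, Krt5 and Krt14 the basal layer of skin, and Krt1 and Krt10 the layers above it. The remaining genes serve mainly the hair shaft, the root sheath or stratified linings, and the keratin-associated proteins (Krtap genes) form the matrix of hair. In the RefSeq gene order of GRCm38.p6, 61 protein-coding genes run from Krt27 to Krt42 on chromosome 11, of which 23 are keratins and 23 are named Krtap. On chromosome 15, 26 of the 27 protein-coding genes from Krt80 to Krt18 are keratins. The genes Krt222, Krt24, Krt25 and Krt26 come before Krt27 and were taken to lie outside the type I window.

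Promoters of 4 type II cluster genes, from the RefSeq table of GRCm38.p6, are shown for the contrast on which the results turn, since CpG-rich promoters are frequent sites of H3K27me3. Each runs from 250 bases before to 50 bases after the gene's start, 5′ to 3′ on the gene's strand, with every CG in capitals. Krt8 (chr15:102004293-102004592, minus strand) and Krt18 (chr15:102027966-102028265, plus strand) are the hepatocyte pair, Krt7 (chr15:101412153-101412452, plus strand) the bile duct keratin at the other end, and Krt5 (chr15:101712856-101713155, minus strand) a skin keratin between them. These positions are not mm9 and cannot be set beside those of the islands.
Krt8: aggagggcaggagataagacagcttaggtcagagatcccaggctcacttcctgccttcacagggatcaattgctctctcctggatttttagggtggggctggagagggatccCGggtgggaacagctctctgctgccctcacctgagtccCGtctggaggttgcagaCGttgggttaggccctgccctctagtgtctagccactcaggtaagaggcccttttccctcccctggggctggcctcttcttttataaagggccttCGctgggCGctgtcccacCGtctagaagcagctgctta
Krt18: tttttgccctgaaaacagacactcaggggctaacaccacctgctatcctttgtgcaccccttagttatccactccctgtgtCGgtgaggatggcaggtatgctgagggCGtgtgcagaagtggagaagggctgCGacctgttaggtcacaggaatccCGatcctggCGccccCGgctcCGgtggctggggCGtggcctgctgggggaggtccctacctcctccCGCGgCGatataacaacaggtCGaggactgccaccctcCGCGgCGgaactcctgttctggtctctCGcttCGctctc
Krt7: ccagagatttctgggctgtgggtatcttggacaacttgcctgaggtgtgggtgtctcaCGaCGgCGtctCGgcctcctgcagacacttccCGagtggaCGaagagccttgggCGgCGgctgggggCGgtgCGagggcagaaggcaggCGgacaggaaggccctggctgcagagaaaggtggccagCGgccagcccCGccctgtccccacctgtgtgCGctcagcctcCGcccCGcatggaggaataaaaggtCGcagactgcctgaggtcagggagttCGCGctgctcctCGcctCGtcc
Krt5: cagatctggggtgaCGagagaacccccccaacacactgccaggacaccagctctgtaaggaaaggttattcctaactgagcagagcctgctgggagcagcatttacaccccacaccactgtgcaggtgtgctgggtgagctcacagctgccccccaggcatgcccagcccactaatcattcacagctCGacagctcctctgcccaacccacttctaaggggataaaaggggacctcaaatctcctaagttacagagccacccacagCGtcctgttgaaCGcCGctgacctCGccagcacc
Krt8 and Krt5 held 6 CG each, a number that 68.5% of the 16457 autosomal protein-coding genes with a listed promoter reached or passed. Krt18 held 17, reached by 44.4% of genes, and Krt7 held 21, reached by 34.9%. CG reads the same on both strands. Of the 75 keratin and Krtap genes of chromosomes 11 and 15, 57 (76.0%) had a listed promoter, too few for a comparison of gene groups.

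The files list islands, stretches of enriched signal called by the authors, with a score for each. The measure used throughout is the percent of a window or bin that lay under islands. The 6 libraries of 600 to 1100 bp held 6295 to 14748 islands, which covered 7.04 to 13.7% of the autosomes, lowest in TCPOBOP replicate 3 (7.04%) and vehicle replicate 3 (7.92%). The 2 libraries of longer fragments covered 26.4 and 27.3%. The lists hold no reads, so depth is unknown and a stretch without an island is not read as free of the mark. Liver holds several cell types, and a mark in more cells cannot be told apart from more of the mark per cell.

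Both keratin clusters had more of their length under H3K27me3 islands than the autosomes as a whole in each library. The type II window was covered to 79.4, 76.9 and 52.3% in vehicle replicates 1 to 3 and to 65.4, 75.3 and 40.8% in TCPOBOP replicates 1 to 3. The type I window was covered to 53.3, 57.2 and 36.9% and to 49.9, 54.4 and 24.7%. Replicate 3 of each treatment was lowest in both windows, as over the autosomes. Relative to the percent of all autosomes in the same library, type II stood at 5.78 to 6.70 times that percent and type I at 3.51 to 4.98 times, in the 6 livers. The longer fragments covered 88.2 and 87.9% of type II and 88.0 and 86.2% of type I. HoxC, a classical Polycomb target farther along chromosome 15, was 97.3 to 100% covered in the 8 lists, and the window over the liver genes Alb and Afp was free of islands in all 8.

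**Figure D1:**
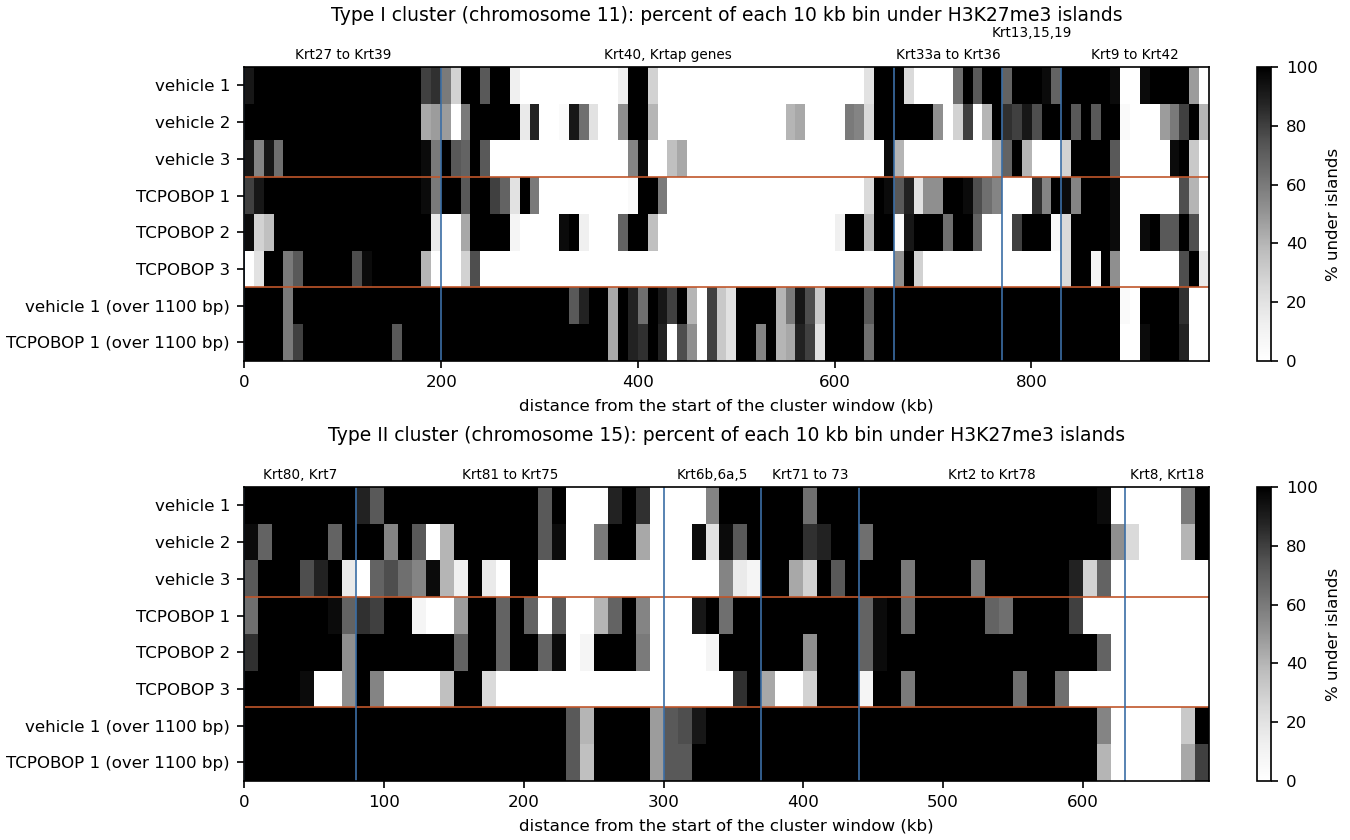
Percent of each 10 kb bin under islands (grey scale, 0 to 100%) in the 8 libraries (rows) along the type I window of 980 kb and the type II window of 690 kb, with the distance from the window's start on the x axis, blue lines between sub-windows and red lines between groups of libraries. Dark bins run through most of the type II window and stop before the Krt8 and Krt18 sub-window, while the Krtap stretch of type I is pale in the 6 upper rows and darker in the 2 lowest rows, the fragments over 1100 bp.

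A bin was counted as covered when at least 50% of it lay under islands. In all 6 livers, 45 of the 167 keratin bins (26.9%) were covered, against 2.86% of all autosomal bins. Of these, 24 lay in type II and 21 in type I, and 0 of the 6 bins of the Krt8-Krt18 end were among them. In none of the 6 livers were 36 of the 167 covered (21.6%, against 78.2% of autosomal bins). The median keratin bin had a mean cover of 60%, and the median autosomal bin 0%. By length, 29.5% of type II and 20.2% of type I lay under islands in all 6 livers, against 2.62% of the autosomes. The chromosomes themselves differed, with 5.76% of the bins of chromosome 11 and 2.88% of those of chromosome 15 covered in all 6 livers.

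The stretches shared by all 6 livers were long. In type I the longest were 64.8 kb (99252801 to 99317600) and 63.6 kb (99320401 to 99384000), both in the part with Krt10, Krt12, Krt20 and Krt23, and then 15.2 kb (100070001 to 100085200) in the part with Krt14 and Krt16. In type II they were 45.6 kb (101665201 to 101710800) and 29.6 kb (101746801 to 101776400), both in the part with Krt1, Krt2 and Krt4, and 34.4 kb (101203201 to 101237600) in the part with Krt80 and Krt7. In each of the 6 lists the highest-scoring island of a cluster, by the authors' score, overlapped one of the 2 longest type I stretches or one of the 2 type II stretches in the part with Krt1, Krt2 and Krt4. The highest-scoring type I island ranked 28 of 10057, 27 of 14748 and 7 of 12430 in the vehicle lists and 21 of 13759, 24 of 10197 and 92 of 6295 in the TCPOBOP lists. In type II it ranked 35, 44 and 80 in the vehicle lists and 257, 34 and 212 in the TCPOBOP lists. Each of these islands was thus within the top 3.37% of its list.

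The next comparison set the hepatocyte pair against the rest of its cluster, chiefly hair and skin keratins but also the bile duct keratin Krt7. The Krt8-Krt18 end was the least covered part of both clusters by its mean. Islands covered 26.7, 27.3 and 0% of it after vehicle and 0% in each of the 3 TCPOBOP livers, a mean of 9 ± 13.9% (SD, n = 6). The other 630 kb of type II were covered to 84.4, 81.7 and 57.3% after vehicle and to 71.7, 82.5 and 44.7% after TCPOBOP, a mean of 70.4 ± 16.2% (SD, n = 6). Every liver had less cover at the end than in the rest, and the highest value at the end, 27.3%, was below the lowest of the rest. The difference was -61.4 ± 13.5 percentage points (SD, n = 6), lower in 6 of 6 livers (two-sided exact permutation test flipping signs within livers, p = 0.03125, the smallest that 6 livers allow). This p measures only how far the livers agree at this pair of windows, which were chosen with earlier results of these data known. The longer fragments gave 22% at the end against 94.5% in the rest for the vehicle liver, and 20.7% against 94.3% for the TCPOBOP liver. Relative to the autosomes, the end stood at 0 to 2.38 times and the rest at 6.14 to 7.29 times in the 6 livers.

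**Figure D2:**
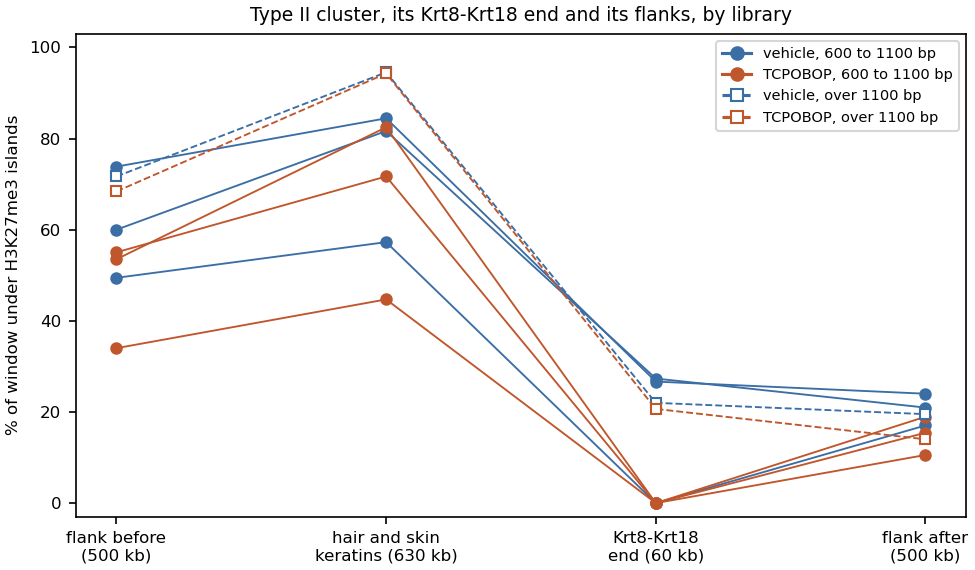
Percent under islands (y axis) in the 500 kb before the type II cluster, its hair and skin keratins (630 kb), its Krt8-Krt18 end (60 kb) and the 500 kb after it, with 1 line per library (filled circles 600 to 1100 bp, open squares over 1100 bp; blue vehicle, orange TCPOBOP). All 8 lines fall from the hair and skin keratins, at 44.7 to 94.5%, to the Krt8-Krt18 end, at 0 to 27.3%. The part labelled hair and skin keratins also holds Krt7.

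The covered domain stopped before the middle of the Krt8-Krt18 window in each list, at places that varied. The last island before the Krt8-Krt18 pair ended at 101809600 in vehicle replicate 1, 101822400 in vehicle replicate 2 and 101806800 in vehicle replicate 3. With TCPOBOP it ended at 101788000, 101806800 and 101776400 in replicates 1 to 3, and in the longer fragments at 101805600 (vehicle) and 101804000 (TCPOBOP). The ends of these last islands thus spread over 46.0 kb. In vehicle replicate 2 the last island was a separate one of 6.80 kb, and the highest-scoring type II island of that list ended at 101810800. In vehicle replicate 3 and TCPOBOP replicates 1 and 3 the highest-scoring type II islands ended earlier, at 101788800, 101726800 and 101743200. The same 41.6 kb, from 101822401 to 101864000, were free of islands in all 8 lists. The genes' own mm9 positions were not used here, so the stretch is tied to them only by gene order. It was the longest such stretch in the type II window, where the next was 8.00 kb (101484801 to 101492800). The type I window held such stretches too, the longest of 19.6 kb (100090401 to 100110000) in the part with Krt14 and Krt16, and then 16.8 kb. The island-free stretch around the pair was 54.4, 43.6 and 160.8 kb long after vehicle and 174.4, 160.4 and 190.8 kb after TCPOBOP. In the longer fragments of replicate 1 it was 61.2 kb (vehicle) and 61.6 kb (TCPOBOP).

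What cover the Krt8-Krt18 window had lay mostly at its distal edge. An island began there at 101864001 in vehicle replicate 1 (score rank 5557 of 10057) and at 101866001 in vehicle replicate 2 (rank 11683 of 14748). Both lists of longer fragments also had one, from 101866801 in the vehicle liver (rank 10531 of 17577) and from 101865601 in the TCPOBOP liver (rank 19036 of 22077). All 4 ranked in the lower part of their lists. In vehicle replicate 2 a further island of 6.80 kb crossed into the window from its proximal side (rank 13468).

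**Figure D3:**
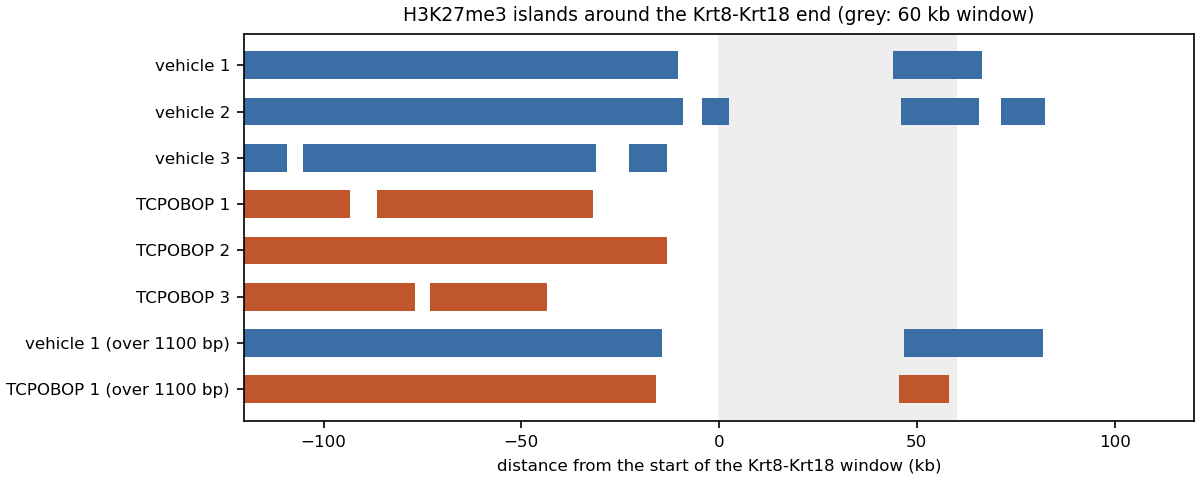
Islands (bars) of the 8 libraries (rows; blue vehicle, orange TCPOBOP) by distance in kb from the start of the Krt8-Krt18 window, which is shaded over 60 kb. The wide islands of the hair and skin keratins end left of the shaded window, 1 island of 6.80 kb in vehicle replicate 2 crosses its left edge, and its middle is empty in all 8 rows over 41.6 kb.

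Cover varied among the other keratin groups, taken as 10 further sub-windows with approximate edges. Highest by its mean over the 6 livers, 91.5%, was the part of type I with Krt27, Krt28, Krt10, Krt12, Krt20, Krt23 and Krt39, keratins of root sheath, upper skin layers, cornea, gut and hair. It was covered to 97.8, 94.6 and 93.0% after vehicle and 96.4, 88.8 and 78.2% after TCPOBOP. With edges moved outward by 20 kb its mean was 84.2%, below the 84.6% of the part with Krt71 to Krt73. The part with Krt80 and the bile duct keratin Krt7 followed at 100, 91.5 and 81.5% and 91.0, 92.0 and 68.5%. The root sheath keratins Krt71, Krt72 and Krt73 stood at 94.9, 96.0 and 77.7% and at 100, 93.1 and 53.1%, and the part from Krt2 and Krt1 to Krt4 and Krt78, of skin and stratified linings, at 94.5, 95.6 and 84.4% and 75.8, 91.2 and 68.2%. The means of these 4 parts, 84.9 to 91.5%, differed by less than the SD of any of them over the 6 livers. That SD is between livers, and differences between parts within a liver were not tested. Krt7, a simple epithelial keratin like Krt8 and Krt18, thus lay in a sub-window with at least 68.5% cover in every liver.

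A middle group had lower means. The part with Krt9, Krt14, Krt16, Krt17 and Krt42 was covered to 38.4 to 76.0% (median 53.5%), and the hair keratins from Krt81 to Krt75 to 18.9 to 80.4% (median 62.1%). The part with Krt13, Krt15 and the bile duct keratin Krt19 stood at 88.7, 88.7 and 34.7% after vehicle and 40.0, 64 and 0% after TCPOBOP. The hair keratins Krt33a to Krt36 ranged from 7.27 to 70.5% (median 57.3%), and Krt6b, Krt6a and Krt5, keratins of basal and wounded skin, from 11.4 to 65.1% (median 47.4%). The means of these 5 parts, 42.1 to 55.8%, lay within 1 between-liver SD of each other, and differences within a liver were not tested. At equal covered length the part with Krt33a to Krt36 had a mean of 26.7% and that with Krt13, Krt15 and Krt19 one of 30%, against 35.3 to 47.6% in the other 3. Vehicle replicate 3 or TCPOBOP replicate 3, the 2 lists with the smallest covered length, held the lowest value in each of the 5. In the longer fragments the 5 parts were covered to 72.3% or more, and those of Krt33a to Krt36 and of Krt13, Krt15 and Krt19 to 100%.

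The Krtap genes were the part of type I with the lowest mean cover, 22.4%. Their 460 kb, which also hold Krt40, lay under islands to 22.4, 35.0 and 16.1% after vehicle and to 27.9, 30.7 and 2.26% after TCPOBOP. Relative to the autosomes they stood at 0.321 to 3.04 times. Of these 46 bins, 1 was covered in all 6 livers (2.17%, against 2.86% of autosomal bins) and 24 were covered in none (52.2%, against 78.2%), while in the part just before them 15 of 20 bins were covered in all 6. In the longer fragments the same 460 kb were covered to 84.2 and 81.7%. Fragment length and list length (26.4 and 27.3% of the autosomes) cannot be told apart in that contrast. Many Krtap genes are close copies of each other, so values there are uncertain where reads could not be placed on 1 copy. The Krt8-Krt18 end had less cover than each of the other 10 sub-windows in 4 of 6 livers. In vehicle replicate 1 the Krtap stretch was lower, at 22.4% against 26.7%, and in TCPOBOP replicate 3 the part with Krt19 was also at 0%.

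The clusters were then set against the 500 kb on either side. Type II exceeded the mean of its flanks in 6 of 6 livers, 65.0 ± 15.5% against 36.1 ± 8.76% (SD, n = 6), a difference of 29.0 ± 8.59 points (SD; two-sided exact permutation test flipping signs within livers, p = 0.03125). Its flanks were unlike each other, with 34.0 to 73.8% cover before Krt80 and 10.6 to 24.0% after Krt18. The flank after Krt18 still had more cover than all autosomes in each of the 6 livers. That flank also exceeded the Krt8-Krt18 end in the livers with 0% there, and was below it in vehicle replicates 1 and 2. Whether the covered domain ran on across the edge before Krt80 was not tested. Type I exceeded its flanks in 5 of 6 livers, 46.1 ± 12.7% against 30.4 ± 8.37% (SD, n = 6), a difference of 15.7 ± 12.9 points (exact permutation p = 0.0625). In TCPOBOP replicate 3 type I was lower than its flanks, at 24.7% against 27.5%. The flank before type I itself held keratins, Krt222 to Krt26, in its last 100 kb, which were covered to 31.6 to 81.2% in the 6 livers.

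The last comparison asked whether cover of the keratins differed between treatments. Type II had 69.5 ± 15% of its length under islands after vehicle against 60.5 ± 17.8% after TCPOBOP (SD, n = 3 each), a difference of -9.02 points (two-sided exact permutation p = 0.5). Type I had 49.1 ± 10.8% against 43.0 ± 16% (SD, n = 3 each), a difference of -6.10 points (exact permutation p = 0.6). With 3 livers against 3 the smallest possible p is 0.1. Both differences were smaller than the spread between livers, and both turned without TCPOBOP replicate 3, to 0.831 points for type II and 3.05 for type I. Among the 3 libraries with a median island width over 20 kb (vehicle replicate 1, TCPOBOP replicates 2 and 3) they were -21.4 and -13.7 points, and among the other 3 they were 0.841 and 2.86. As a ratio to the percent of all autosomes in the same list, type II stood at 6.36 after vehicle and 6.33 after TCPOBOP, and type I at 4.5 and 4.43 (exact permutation p = 0.8 for each).

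Of the Krt8-Krt18 end, 18 ± 15.6% lay under islands after vehicle and 0 ± 0% after TCPOBOP (exact permutation p = 0.4; SD, n = 3 each). Vehicle replicate 3, at 0%, overlapped the treated livers. The difference of -18 points was -8.89 when low-scoring islands were left out by a common score minimum, -8.33 with the window edges moved inward by 10 kb, and 0 at equal covered length. It was -26 with the edges moved outward by 20 kb (exact permutation p = 0.2) and -27 without vehicle replicate 3 (exact permutation p = 0.1). Among the 3 libraries with wide islands it was -26.7 points, and among the other 3 it was -13.7. In the longer fragments of replicate 1 the vehicle and TCPOBOP livers differed little there, at 22 and 20.7%. Across the 11 sub-windows the treatments overlapped in each, with exact permutation p from 0.2 to 0.8. The mean was lower with TCPOBOP in 9 and higher in 2, those of Krt33a to Krt36 (10.4 points) and of Krt6b, Krt6a and Krt5 (6.10 points). As a ratio to the autosomes it was lower in 6 and higher in 5, with overlap again in all 11.

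**Figure D4:**
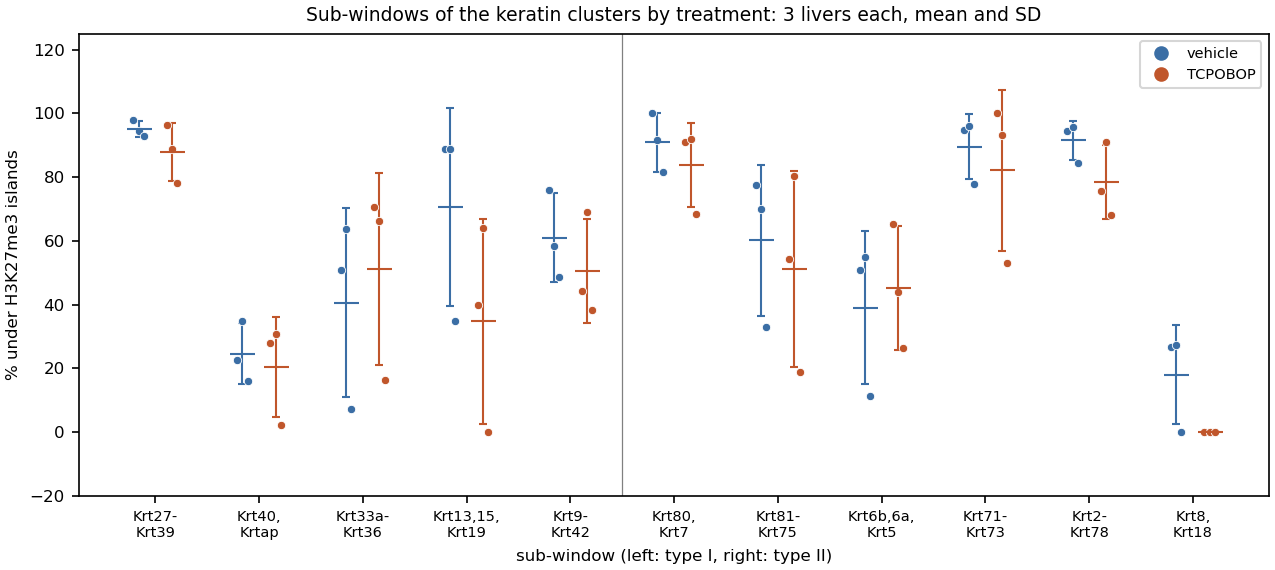
Percent under islands (y axis) in the 11 sub-windows (x axis) of the type I and type II clusters, with 1 point per liver and the mean and SD of 3 vehicle (blue) and 3 TCPOBOP (orange) livers. Points of the treatments overlap in every sub-window, and the Krt8 and Krt18 sub-window has 4 of 6 livers at 0%.

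Single bins gave no call. Of the 167 keratin bins, 123 were covered to 50% or more in at least 2 livers and entered a limma fit over 36824 autosomal bins. With Benjamini-Hochberg adjustment 0 keratin bins passed 0.05, and 0% of all bins did (0 of 36824). The lowest adjusted p of all bins was 0.253, and on simulated data the same fit called no bin even when changed over its whole length, so the absence of calls does not show that bins kept their cover. Without vehicle replicate 3, limma called 1 of the 123 keratin bins and 587 of the 36824 bins tested, a smaller share of the keratin bins than of all. The keratin bin called was the distal bin of the Krt8-Krt18 window (101870001 to 101880000), covered to 100% in vehicle replicates 1 and 2 and to 0% in the other 4 livers. It entered the fit only through those 2 vehicle livers. Leaving out the vehicle liver at 0% left no spread within either group, so no conclusion is drawn from that call. At an unadjusted p under 0.05, 1 keratin bin was lower with TCPOBOP (0.813%, against 2.57% of all bins tested) and 0 were higher (0.769% of all). Without TCPOBOP replicate 2 the count lower was 7 of 123 (5.69%, against 4.18% of all bins). With any other liver left out the keratin share was below that of all bins. It was 3.25 against 4.40% without TCPOBOP replicate 1 and 1.63 against 2.50% without TCPOBOP replicate 3. Without vehicle replicates 1, 2 and 3 in turn it was 0.813 against 2.87%, 0.813 against 3.06% and 2.44 against 6.49%. In bins of 5 kb the count lower was 6 of 235 (2.55%, against 2.18%), and with replicate as a block it was 4 of 123 (3.25%, against 2.86%). The median difference was -4 points over the keratin bins and over all bins tested. With each library centred on its own mean both medians were 4.04 points, and the split of all bins at an unadjusted p under 0.05 went from 283 higher and 945 lower to 740 higher and 323 lower. Groups did not overlap in 0 keratin bins higher with TCPOBOP, against 1.24% of all bins, and in 1 of 123 lower (0.813%, against 3.73%).

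That bin, on chromosome 11 from 99970001 to 99980000, lies near the approximate edge between the hair keratins and the part with Krt13, Krt15 and Krt19. It was covered to 68.0, 84.0 and 68.0% after vehicle and 0% in each TCPOBOP liver, a difference of -73.3 points (limma SE 13.1, limma adjusted p = 0.312). Because it passed the filter only through the vehicle livers, a difference of this direction was favoured and no conclusion is drawn. The vehicle islands over it ranked 5422 and 3163 of 10057 in replicate 1, 7276 of 14748 in replicate 2, and 8953 and 8571 of 12430 in replicate 3. In the longer fragments it was 100% covered in the livers of both treatments, inside islands of 253.2 kb (vehicle, rank 132 of 17577) and 252.8 kb (TCPOBOP, rank 144 of 22077). The next bins by p were 101800001 to 101810000 on chromosome 15, at the edge before Krt8, with 96.0, 100 and 68.0% against 0, 68.0 and 0%, and 99960001 to 99970000 on chromosome 11, with 100, 100 and 40.0% against 56.0, 0 and 0% (limma adjusted p = 0.906 for both). Of the bins higher with TCPOBOP, the smallest p belonged to 99910001 to 99920000 on chromosome 11, with 0% after vehicle and 100, 64 and 0% after TCPOBOP. That bin passed the filter only through TCPOBOP livers. It was followed by 99870001 to 99880000, with 24.0, 100 and 0% against 88.0, 92.0 and 100%, and by 101540001 to 101550000 on chromosome 15, with 100, 72.0 and 16% against 100, 100 and 84.0% (limma adjusted p = 0.906 for each). In all 5 of these further bins the values of the treatments met or overlapped.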

How the data were processed

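H3K27me3 islands were listed for 8 libraries from 6 livers of individual mice. Per the submitters' processing notes, Bowtie2 2.3.2, SICER 1.1 and the build mm9 were used, with roles not given. The deposited score is the authors' value for an island within its own list, and was used only to rank and filter islands. Islands were listed per library on a grid of 400 bp, per the file names with a gap of 2400 bp; an input library was not analysed here. Coordinates are 1-based.

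Cover of windows and 10 kb bins was computed with Python 3.11.15, numpy 2.4.6 and pandas 2.3.3, and plotted with matplotlib 3.10.9. Treatments were compared by exact permutation over 20 labellings, parts of 1 liver by 64 sign flips, and bins by limma 3.58.1 with a trend (R 4.3.3), tested on simulated data. The cluster windows and all sub-window edges are approximate mm9 positions from general knowledge, with genes assigned by order. Named regions were the sub-windows, islands at the Krt8-Krt18 end, the 3 longest shared stretches and the highest-scoring island per cluster, and the 3 bins per direction with the smallest p. The promoters of Krt19 and of Krt14, whose listed start lies inside the gene, were not printed. The members, windows and lists were chosen with earlier results of these data known. Alternatives were a score minimum, equal covered length, moved edges, other bins and scales, and leaving out livers.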

Additional observations from a re-analysis of the deposited data

How the results depend on the processing

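The Krt8-Krt18 end had less cover than the rest of type II under each alternative run. With the whole type I window and the rest of type II together as comparator the difference was -46.6 points. That comparator also holds the simple epithelial keratins Krt7, Krt19, Krt20 and Krt23 and the Krtap genes. Against the rest of type II it was -55.8 with edges moved outward by 20 kb, -64.9 with edges moved inward by 10 kb and -66.5 at equal covered length. The main difference, -61.4 points, lay between -64.7 and -57.1 with any 1 liver left out. It was -61.7 and -61.1 among the 3 libraries with wide and the 3 with narrow islands. All these subsets of livers are too small for p to pass 0.05. Type II minus its flanks, 29.0 points, likewise ranged from 26.9 to 31.1 and was 29.4 and 28.6. Type I, -6.10 points with TCPOBOP, ranged from -12.2 to 3.05 with 1 liver left out and was 2.86 among the narrow lists. Type II, -9.02, ranged from -17.7 to 0.831 and was 0.841 among the narrow lists; the cause was not tested. The Krt8-Krt18 end, -18, ranged from -27 (without vehicle replicate 3) to -13.3 with 1 liver left out, was -26 with edges moved outward by 20 kb, and was 0 at equal covered length, where low-scoring islands are dropped by construction. limma called 0 keratin bins under the alternatives run, except 1 of 123 without vehicle replicate 3, where it called 587 of all 36824 bins. That keratin bin, from 101870001 to 101880000 on chromosome 15, was at 0% in the omitted liver (limma adjusted p = 0.0394). The omission left no spread within groups, and the bin had passed the filter only through vehicle livers, so the call decides nothing. In the main fit 1 keratin bin passed an unadjusted 0.05, an alternative chosen after seeing the data. Keratin bins covered in all 6 livers fell from 26.9 to 15.6% when 80% of a bin had to be covered, and autosomal bins from 2.86 to 1.46%; with any overlap the shares were 36.5 and 4.68%. The mean of the part with Krt33a to Krt36 went from 45.8 to 26.7% at equal covered length and that of the part with Krt19 from 52.7 to 30%.

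The labels give shared replicate numbers without a shared animal, and the correlations between deviations of livers with 1 number were 0.0268, 0.0159 and 0.0599. With the replicate block the differences were -6.10 points for type I (exact permutation p = 0.25), -9.02 for type II (exact permutation p = 0.25, for both the smallest that 3 pairs allow, with TCPOBOP lower in all 3) and -18 for the Krt8-Krt18 end (p = 0.5), and limma called 0 keratin bins. Islands without read counts limit the precision, and window edges are approximate.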

Other observations

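Other gene clusters of skin and hair were less covered than the keratin clusters. The epidermal differentiation complex holds loricrin, filaggrin and the small proline-rich proteins of the outer skin. In a window of 1300 kb inside it (chromosome 3, 91900001 to 93200000), cover was 1.54, 6.92 and 2.49% after vehicle and 1.23, 7.38 and 6.52% after TCPOBOP, below both keratin clusters in 6 of 6 livers. Relative to the autosomes it stood at 0.112 to 0.927 times. The longer fragments covered 35.3 and 36.1%. A window of 600 kb in the Krtap cluster of chromosome 16 (88700001 to 89300000) lay under no island in the 6 livers, and under 0 and 5.6% in the longer fragments, while the Krtap stretch of chromosome 11 had 2.26 to 35.0% in the 6 livers. The 100 kb with the keratins Krt222 to Krt26, just before the type I window, were covered to 81.2, 31.6 and 49.6% with vehicle and 52.8, 42.4 and 52.8% with TCPOBOP. These 3 windows are approximate and were chosen after the keratin values had been seen, so they are given without a test.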
